A study of Homo sapiens with 5 samples.

Results

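The 35 genes described here encode aminoacyl-tRNA synthetases, out of 20033 protein-coding genes on chromosomes 1 to 22, X and Y. They were taken from a list of gene symbols that uses no measured value but was chosen with earlier results of these data known. A gene was counted as bound when a called peak lay within 1 kb of the start of any of its transcripts in GENCODE 44 (GRCh38). MYC peaks lay at 30 of the 35 genes in replicate 1 and at 24 in replicate 2, and 23 had one in both lists. HSF1 peaks lay at 4 genes in replicate 1 and 5 in replicate 2, and only EARS2 and NARS2 had one in both lists.

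Aminoacyl-tRNA synthetases join each amino acid to its tRNA and so supply the ribosome with charged tRNA. Human cells make separate enzymes for the cytosol and, from other nuclear genes, for the mitochondrial matrix, with a few enzymes that work in both places. MYC is a transcription factor that pairs with MAX on the E-box and is known for raising genes of ribosome production and translation, while HSF1 binds repeats of GAA units, the heat shock element, and is known for raising chaperone genes. Genes of the cytosolic enzymes are also known targets of ATF4, which acts through the amino acid response element when amino acids are short.

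Binding was measured by CUT&RUN, in which an antibody guides a nuclease to its protein and the freed DNA fragments are sequenced. The cells were OVCAR8, an established human ovarian carcinoma line that the study chose because HSF1 and MYC are both amplified in it, growing untreated in 21% oxygen. About 500000 cells, crosslinked in 1% formaldehyde for 1 minute, went into each reaction, and the series has 2 MYC libraries, 2 HSF1 libraries and 1 IgG control. The labels do not say that replicates came from separate cultures, so differences between replicates may be technical only.

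All 4 peak lists were called against the same IgG library, with MACS limits of 1e-10 for MYC and 1e-04 for HSF1 on the p-value scale, so an HSF1 peak needed less signal than a MYC peak. The antibody libraries held 8265647 to 10084407 fragments after filtering and the IgG library 9306942. MYC replicate 1 stood apart with 25646 peaks against 13290 in MYC replicate 2, although it had the fewest fragments. The HSF1 lists held 6477 and 4492 peaks. As a check of the antibodies, HSF1 peaks were present in both HSF1 lists at HSPH1, DNAJB1, HSPD1, HSPE1 and BAG3, which encode chaperones and co-chaperones. HSPD1 and HSPE1 had equal HSF1 fold enrichments over IgG, 15.14 in replicate 1 and 20.47 in replicate 2. They may rest on the same peak and are not taken as separate checks. HSF1 peaks were in neither HSF1 list at NCL, NPM1, ODC1 and CDK4, genes known as MYC targets that had MYC peaks in both MYC lists. MYC peaks also lay at the chaperone and co-chaperone genes, in both MYC lists except at BAG3, which had one in replicate 1 alone. The check thus sets the gene groups apart in the HSF1 lists only.

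MYC peaks were frequent at the synthetase genes. In replicate 1 they lay at 85.7% of the 35 genes, against 55.3% of all protein-coding genes. In replicate 2 the share was 68.6%, against 41.2%. A peak in both lists was found at 65.7%, against 40.1%. Only KARS1, RARS1, AARS2 and TARS2 had no MYC peak in either list, 11.4% of the genes against 43.6% of all protein-coding genes. These shares describe the lists and carry no test, since genes are not replicates.

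**Figure D1:**
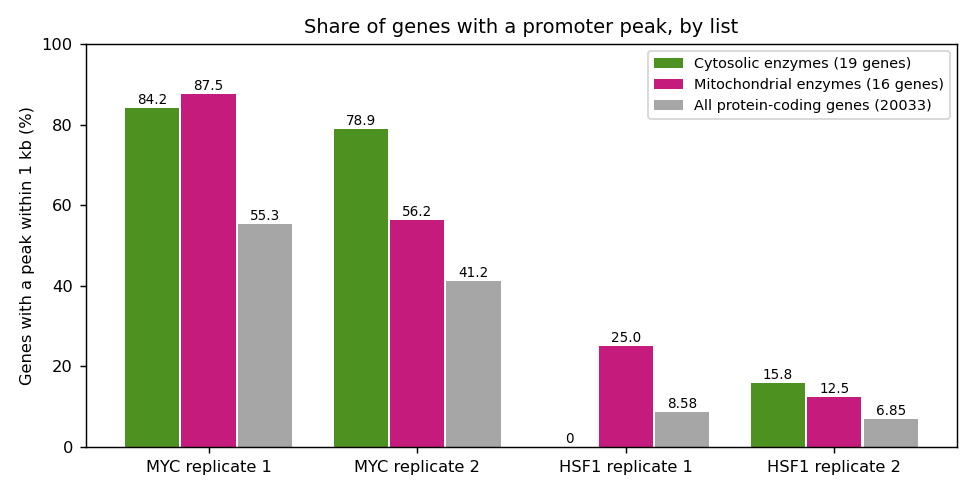
Share of genes (%, y axis from 0) with a peak within 1 kb of a start site in each of the 4 lists (x axis), for the 19 cytosolic enzymes, the 16 mitochondrial enzymes and all 20033 protein-coding genes. Both classes stand above all genes in the MYC lists. They change places between the replicates, at 84.2% and 87.5% in replicate 1 and 78.9% and 56.2% in replicate 2.

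HSF1 peaks were fewer and differed between the lists. The 4 genes in replicate 1, 11.4% against 8.58% of all protein-coding genes, were CARS2, EARS2, NARS2 and WARS2, which all encode mitochondrial enzymes. The 5 genes in replicate 2, 14.3% against 6.85%, were the cytosolic FARSB, TARS1 and VARS1 and the mitochondrial EARS2 and NARS2. With either list, 7 genes had an HSF1 peak, against 11.9% of all genes, and with both lists 2 did, 5.71% against 3.49%. The count of 2 fell to 1, EARS2 alone, within 500 bp (3.09% of all genes), with the summit within 1 kb (3.35%), from the outer end of the gene record (2.54%) and from the canonical start (2.58%), and a single gene of 35 is 2.86%. All 7 had a MYC peak in both MYC lists, and 16 other genes had MYC in both lists and no HSF1 peak, 45.7% of the 35 against 30.2%. A peak of each factor in at least 1 list was found at these 7 members and at 11.4% of protein-coding genes.

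The number of bound synthetase genes was 27.0 ± 4.24 in the MYC lists and 4.5 ± 0.71 in the HSF1 lists (SD, n = 2 each), a difference of 22.5 genes. Over all protein-coding genes the counts were 11080 and 8245 in the MYC lists and 1718 and 1372 in the HSF1 lists. The excess of MYC is therefore a trait of the lists as a whole and not of the synthetase genes in particular. Both MYC counts were above both HSF1 counts, but with 2 lists against 2 the exact two-sided permutation test gave p = 0.333, the smallest p this design allows. With the HSF1 lists cut at the calling limit of the MYC lists the difference was 24.0 genes, so the looser HSF1 limit lowered it. The antibodies also differ, and their part cannot be told apart from that of the factor.

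**Figure D2:**
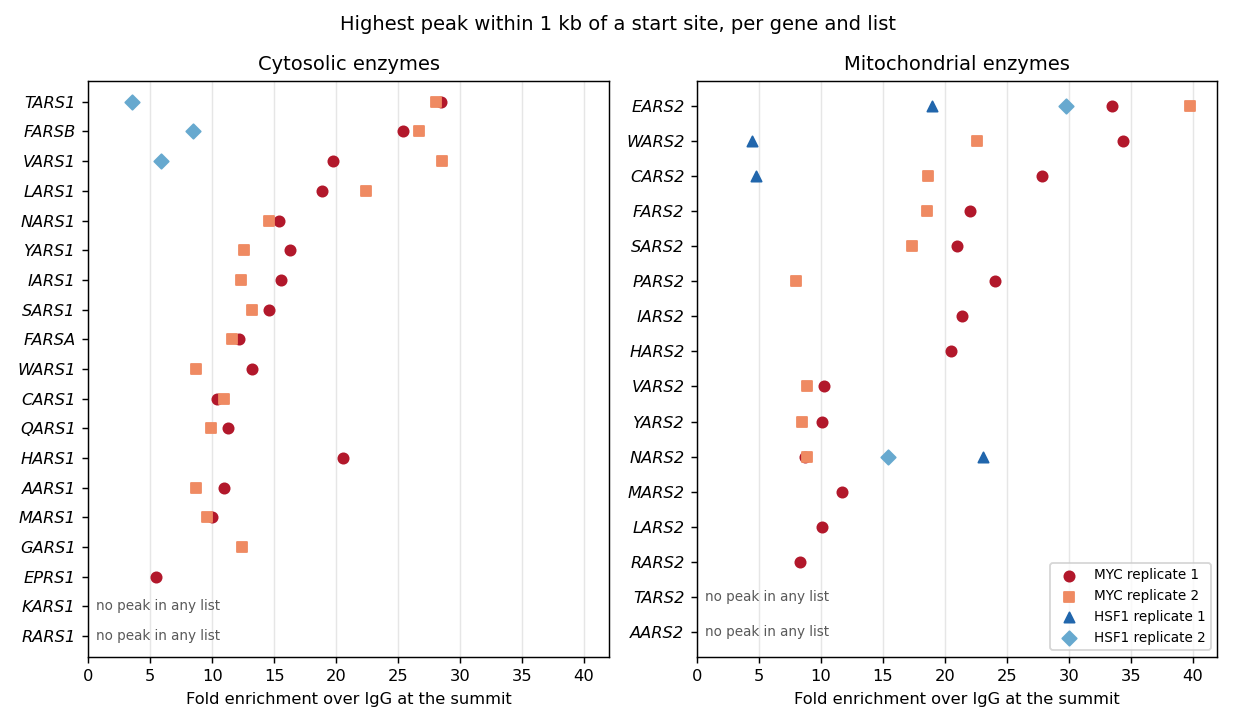
Fold enrichment over IgG at the summit (x axis, linear) of the highest peak within 1 kb of a start site, for each synthetase gene (y axis) and list, with 1 point per list and no point where no peak was called. EARS2 has the highest MYC value in replicate 2 and WARS2 in replicate 1, NARS2 is the gene whose HSF1 points exceed its MYC points, and 4 genes have no peak in any list.

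EARS2, the mitochondrial glutamyl-tRNA synthetase, had the highest mean MYC fold enrichment of the family and was bound in all 4 lists. Its MYC fold enrichment, the summit's fragments over the IgG background, was 33.5 in replicate 1 and 39.8 in replicate 2, and its HSF1 fold enrichment was 18.9 and 29.7. The mean MYC value, 36.6, exceeded that of 98.8% of the 8024 protein-coding genes with a MYC peak in both lists. The MYC peak of replicate 1 spans chr16:23557089-23557936 and the HSF1 peak of replicate 1 lies inside it, at chr16:23557091-23557657. The 4 summits fell within 27 bp of each other, in the coding part of exon 1, 89 to 116 bp downstream of the canonical start site. This site is shared, as the MYC peak of replicate 1 also covers a start of UBFD1 on the other strand.

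NARS2, the mitochondrial asparaginyl-tRNA synthetase, showed the reverse order of the factors. Its MYC fold enrichment was 8.69 in replicate 1 and 8.90 in replicate 2, the lowest mean among the 23 genes. HSF1 reached 23.1 in replicate 1 and 15.4 in replicate 2, but at another place, chr11:78567096-78567818 in replicate 1, with summits 7490 and 7399 bp downstream of the canonical start. That place lies in intron 3 of the canonical transcript, inside an exon of a retained-intron transcript, and counts as a promoter peak only through the start of a short alternative transcript. At the canonical start, HSF1 had a weaker peak in replicate 2 alone, with a fold enrichment of 5.22 and a summit 111 bp downstream, next to the MYC summits at 172 and 236 bp.

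Further HSF1 peaks of NARS2 lay in intron 4, outside the 1 kb limit. In replicate 1 they had fold enrichments of 6.40 at 10.4 kb and 7.84 at 12.2 kb from the canonical start. In replicate 2 the values were 5.31 at 10.4 kb and 4.65 at 12.6 kb, with another of 5.19 at 6.57 kb in intron 3. MYC also had a peak at 10.1 kb in replicate 1, of 11.6, and at 10.4 kb in replicate 2, of 7.25. NARS2 was the only member with HSF1 peaks outside the 1 kb limit in both HSF1 lists.

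The motif matches under the EARS2 and NARS2 peaks are given because these are the members with HSF1 in both lists, shown on the plus strand of GRCh38 with the match in capitals. The heat shock element was searched as GAANNTTCNNGAA and its reverse complement TTCNNGAANNTTC, and the E-box as the palindrome CACGTG. A match is a description of the letters in the window, not of a bound site. The EARS2 lines lie at chr16:23557126-23557154 and chr16:23557348-23557377, and the NARS2 lines at chr11:78567409-78567437 and chr11:78574724-78574753.
EARS2 heat shock element: aggattcaTTCGGGAACATTCgtggggcg
EARS2 E-box: gatggaatagcaCACGTGggcttctccctg
NARS2 intron heat shock element: agaattatTTCTAGAATTTTCcatgtagt
NARS2 promoter E-box: ccagaaagaaacCACGTGcagttggcagct

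In EARS2 both matches lay inside all 4 peaks, the E-box at −13 bp from the canonical start and the heat shock element 210 bp downstream. In NARS2 they were apart, with the heat shock element 7441 bp downstream under the strong HSF1 peaks and the E-box 125 bp downstream under both MYC peaks and the weak HSF1 peak of replicate 2. EARS2 and NARS2 were the only members with a heat shock element in an HSF1 promoter peak, 2 of 4 genes in replicate 1 and 2 of 5 in replicate 2. Among all protein-coding genes with an HSF1 peak the shares were 8.79% and 12.0%. In MYC peaks the element was found at EARS2 alone of the 23 genes with MYC in both lists, against 1.52% of all such genes. An E-box lay in the HSF1 peak of EARS2 in replicate 1, where the share over all genes was 8.56%, and in those of EARS2 and NARS2 in replicate 2, where it was 9.99%.

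The other 5 genes with an HSF1 peak had it in 1 list each, and all 5 had a lower fold enrichment than the highest MYC peaks of the gene. WARS2, the mitochondrial tryptophanyl-tRNA synthetase, had MYC fold enrichments of 34.4 and 22.6 and an HSF1 value of 4.43 in replicate 1 alone, with the HSF1 summit in intron 1. TARS1, which charges threonine tRNA in the cytosol, had 28.5 and 28.0 for MYC and 3.51 for HSF1 in replicate 2 alone. At TARS1 the HSF1 peak rested on 9 fragments at its summit and a −log10 p-value of 4.61, close to the limit of the calls.

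FARSB, the beta subunit of cytosolic phenylalanyl-tRNA synthetase, had MYC values of 25.4 and 26.7 and an HSF1 value of 8.47 in replicate 2. VARS1, the cytosolic valyl-tRNA synthetase, had 19.7 and 28.5 for MYC and 5.90 for HSF1 in replicate 2. FARSA, the alpha subunit that works with FARSB, had lower MYC values of 12.2 and 11.6 and no HSF1 promoter peak. Among all genes with MYC in both lists the mean of FARSB stood at percentile 93.1 and that of FARSA at percentile 28.9.

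CARS2, the mitochondrial cysteinyl-tRNA synthetase, has alternative starts that reach into the promoter of ING1. MYC values were 27.9 in replicate 1, at the canonical start, and 18.6 in replicate 2, at a peak over the ING1 start with its summit at −6666 bp from the canonical one. At the canonical start MYC replicate 2 had 17.5, and at the ING1 start MYC replicate 1 had 17.0. The HSF1 peak of CARS2, of 4.72 in replicate 1 alone, had its summit at the same base as the MYC peak at the ING1 start, so that it lies at a promoter shared with another gene and not at the canonical CARS2 start.

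Where both factors were present their peaks overlapped, at the members as at other genes. All 7 genes, of the 35, had an HSF1 peak that shared at least 1 bp with a MYC peak, against 10.7% of all protein-coding genes and 93.3% of the 2290 genes with a peak of each factor. The HSF1 peak lay wholly inside the MYC peaks at FARSB, TARS1, VARS1, CARS2 and WARS2. Summits of the overlapping peaks were 0 to 250 bp apart, with both of these values from CARS2, and 8 to 27 bp apart at EARS2. At the calling limit of the MYC lists, HSF1 peaks were found at 4 genes, EARS2, NARS2, FARSB and VARS1, against 3.54% of all genes. Overlapping peaks were then found at 3, EARS2, FARSB and VARS1, against 3.12%.

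HSF1 peaks were found at the members with the highest MYC values. The 6 genes with the highest mean MYC fold enrichment, EARS2, WARS2, TARS1, FARSB, VARS1 and CARS2, all had an HSF1 peak in at least 1 list. Of the other 17 genes with MYC in both lists only NARS2 did. This split was set at the mean of CARS2, 23.3, after the values were seen. At the same split, 43.5% of the 915 protein-coding genes above it and 22.2% of the 7109 below it had an HSF1 peak. Of all 8024 genes with MYC in both lists 24.6% did. The CARS2 mean joins different sites, 27.87 at the canonical start in replicate 1 and 18.65 at the ING1 start in replicate 2. At the ING1 start, where its HSF1 peak lies, MYC had 17.01 and 18.65. Both values are below the means of LARS1, FARS2 and SARS2, 20.7, 20.3 and 19.2, which had no HSF1 peak.

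**Figure D3:**
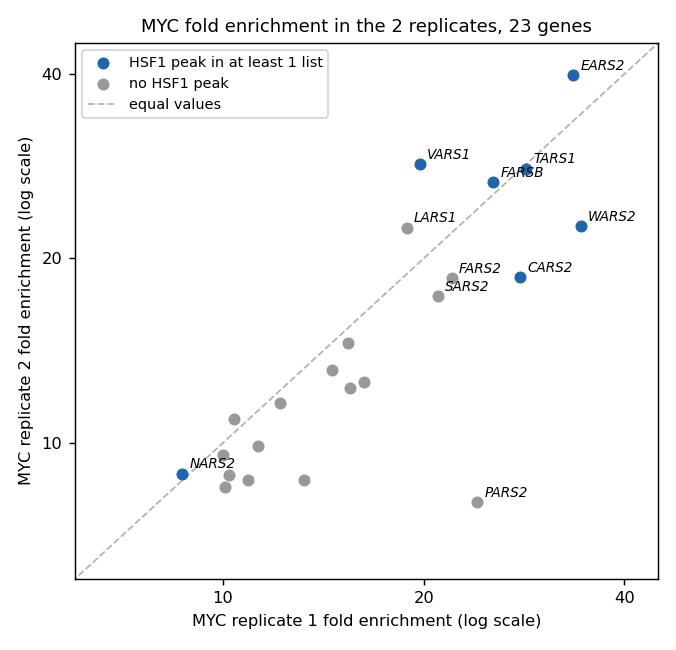
MYC fold enrichment in replicate 1 (x axis) and replicate 2 (y axis), both on log scales, for the 23 synthetase genes with a MYC peak in both lists, coloured by whether an HSF1 peak was called. Most points lie near or below the dashed line of equal values, PARS2 stands apart at 24.1 and 8.0, and 6 of the 7 genes with HSF1 lie at the upper end.

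MYC values of the members covered a wide range. The mean of both lists ran from 8.80 at NARS2 to 36.6 at EARS2, with a median of 14.4 over the 23 genes. The median over all 8024 protein-coding genes with MYC in both lists was also 14.4. Of the 23 genes 12 stood above the median of those genes and 9 stood above 75% of them. The 8 lowest, WARS1, CARS1, QARS1, AARS1, MARS1, VARS2, YARS2 and NARS2, lay between percentiles 5.23 and 21.1.

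Values followed each other between the replicates. Over the 23 genes, which share the 2 MYC libraries and the IgG library, Pearson's r of the log2 fold enrichment was 0.81 and Spearman's rho 0.75, given as a description. The value was higher in replicate 1 at 17 genes, with a median ratio of 1.14 (0.692 to 3.01), and over all protein-coding genes the median ratio was 1.36. PARS2, the mitochondrial prolyl-tRNA synthetase, had the highest ratio, and VARS1 the lowest. In the order of means, WARS2 at 28.5 ± 8.34 and TARS1 at 28.2 ± 0.30 (SD, n = 2) did not differ beyond the spread of the lists. The values of FARSB, 26.0 ± 0.88, lay below those of TARS1 in both lists, while those of VARS1, 24.1 ± 6.22, overlapped those of FARSB.

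Among the cytosolic enzymes, 14 of 19 (73.7%) had MYC in both lists. After TARS1, FARSB and VARS1 came LARS1, leucyl-tRNA synthetase and a known sensor of leucine, with 18.9 and 22.4. NARS1, YARS1, IARS1 and SARS1, which charge asparagine, tyrosine, isoleucine and serine tRNA, ranged from 14.6 to 16.3 in replicate 1 and from 12.3 to 14.5 in replicate 2. FARSA, WARS1, CARS1, QARS1, AARS1 and MARS1 ranged from 10.0 to 13.2 and from 8.69 to 11.6. MARS1, the methionyl-tRNA synthetase, had the lowest mean of these, with 10.0 and 9.57.

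Cytosolic genes outside this group had a peak in 1 MYC list or in none. EPRS1, the enzyme that charges both glutamate and proline tRNA, had 5.49 in replicate 1 alone, the lowest of the members' MYC promoter values. HARS1, histidyl-tRNA synthetase, had 20.5 in replicate 1 alone. GARS1, glycyl-tRNA synthetase of both cytosol and mitochondria, was the only member with MYC in replicate 2 and not in replicate 1, with 12.4, a pattern found at 1.10% of all genes. KARS1, lysyl-tRNA synthetase of both compartments, and RARS1, arginyl-tRNA synthetase, had no peak of either factor.

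Among the mitochondrial enzymes, 9 of 16 (56.2%) had MYC in both lists. Below EARS2, WARS2 and CARS2 came FARS2, which charges phenylalanine tRNA, with 22.03 and 18.56, and SARS2, which charges serine tRNA, with 21.0 and 17.4. VARS2, with 10.2 and 8.87, and YARS2, with 10.1 and 8.47, were at the lower end, next to NARS2. The YARS2 peaks lay 648 and 508 bp downstream of the canonical start by their summits, farther than at most members.

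Of the mitochondrial genes, 5 had a MYC peak in replicate 1 alone. They were IARS2 with 21.4, HARS2 with 20.5, MARS2 with 11.7, LARS2 with 10.1 and RARS2 with 8.28. A peak in replicate 1 alone was found at 7 of the 35 genes, against 15.3% of all protein-coding genes. The median of these 7 in replicate 1 was 11.7, against 15.5 for genes with MYC in both lists, but IARS2, HARS1 and HARS2 stood above most genes that were found in both. AARS2 and TARS2, which charge alanine and threonine tRNA, had none in either list.

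The comparison of the classes turned on MYC replicate 2. In replicate 1 a MYC peak was found at 84.2% of cytosolic and 87.5% of mitochondrial genes, and in replicate 2 at 78.9% and 56.2%. With both lists the cytosolic share was higher by 17.4 percentage points, and with replicate 1 alone it was lower, at −3.3 points. Peak heights had the other order, since the median of the mean MYC fold enrichment was 13.9 over the 14 cytosolic and 19.2 over the 9 mitochondrial genes, a ratio of 0.724. These medians leave out genes without a peak in both lists, and with such genes entered as 0 the order turned, to 11.0 and 9.91, a ratio of 1.11. An HSF1 peak in at least 1 list was found at 3 of 19 cytosolic and 4 of 16 mitochondrial genes. No test over lists separates the classes, and with so few genes these shares are descriptions.

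The MYC summits lay near start sites in part by the rule, which took only peaks within 1 kb of a start. The highest peak of each gene had its summit a median of 130.5 bp from the canonical start in replicate 1 and 166.5 bp in replicate 2. Within 500 bp fell 28 of 30 genes and 20 of 24. At the 23 genes with both lists, the summits of the replicates were a median of 66.0 bp apart and within 100 bp at 14 genes. These distances and counts were not computed over all protein-coding genes, so they show no trait particular to the members. Widths of these peaks ran from 226 to 1427 bp in replicate 1 and from 199 to 1550 bp in replicate 2.

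**Figure D4:**
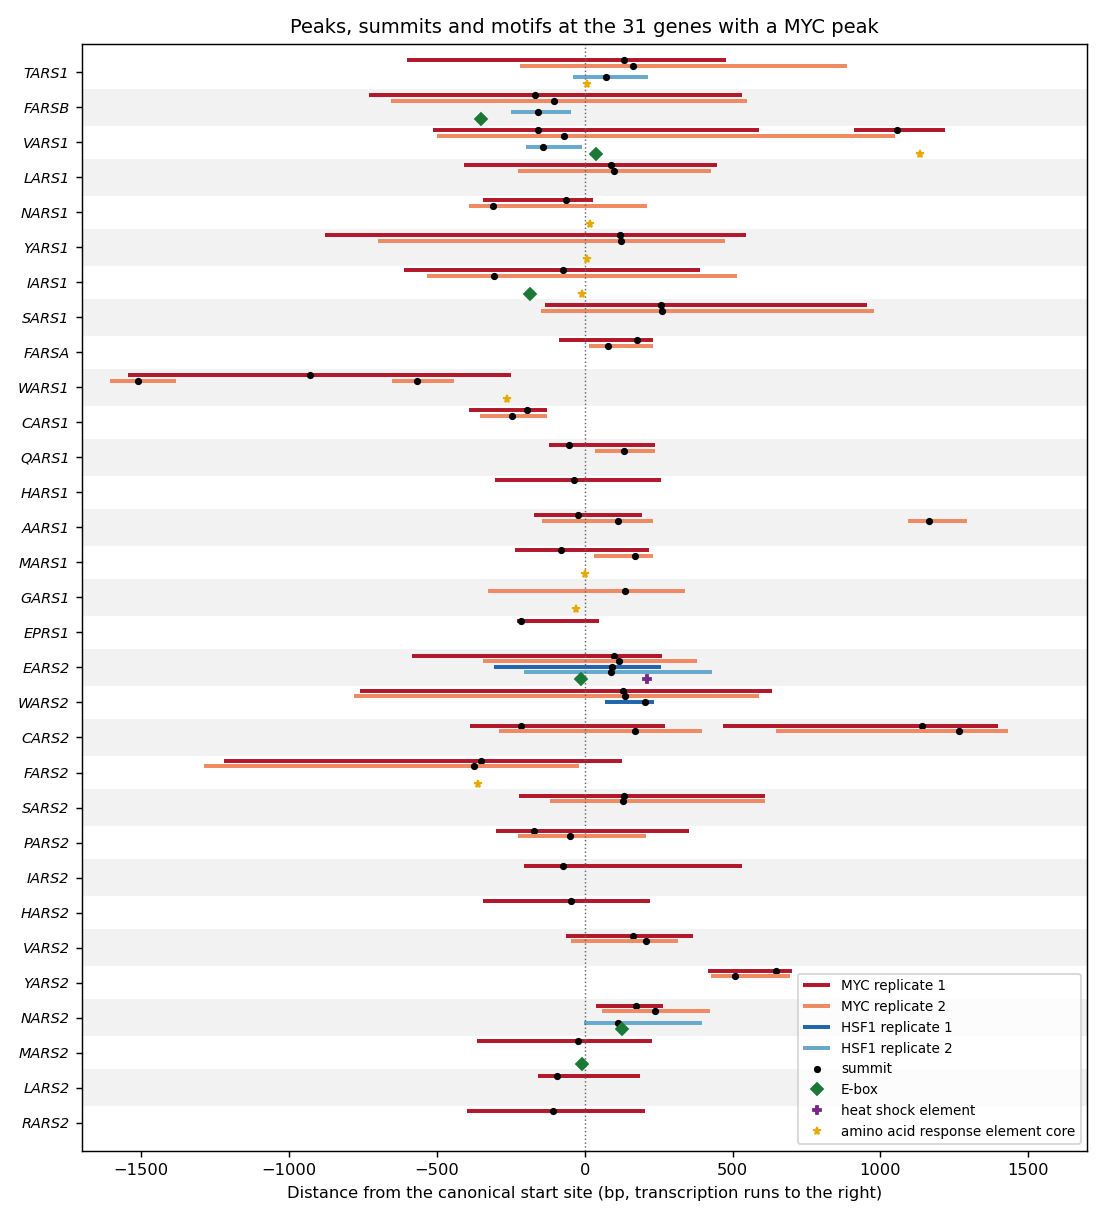
Peaks around the canonical start site (x axis, bp, transcription to the right) for the 31 synthetase genes with a MYC peak (y axis), with 1 bar per peak and list, dots at the summits and symbols at motif matches inside peaks. Peaks cover the start site at most genes, and E-boxes are found at 6 of the genes. Amino acid response element cores sit at the start of 6 genes of the cytosolic class, GARS1 among them.

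Several of these promoters are shared. At 11 of the 31 genes with a MYC peak, a peak of at least 1 list also covered a start of another protein-coding gene. This was 35.5%, against 26.5% of all protein-coding genes with a MYC peak. HARS1 and HARS2 are neighbours in head-to-head order and share a single peak, chr5:140691111-140691675 with a fold enrichment of 20.5, which is 1 observation counted for both. In both MYC lists CARS2 shares a peak with ING1, FARS2 with LYRM4 and YARS1 with S100PBP. In replicate 1 alone EARS2 shares its peak with UBFD1 and SARS2 with MRPS12, a protein of the mitochondrial ribosome. AARS1, WARS1 and RARS2 share theirs with DDX19B, WDR25 and ORC3, also in replicate 1 alone. A further peak of VARS1 in replicate 1, at an alternative start, covers a start of VWA7. Peaks also cover starts of the lncRNA genes GARS1-DT in MYC replicate 2, TARS1-DT in MYC replicate 1 and WARS2-AS1 in both MYC lists. A peak at a shared promoter cannot be assigned to either gene.

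For the 4 genes without a promoter peak the nearest MYC peaks were far in genomic terms. They lay 92.1 and 183 kb away at KARS1 and 47.8 and 47.7 kb away at AARS2, in replicates 1 and 2. At TARS2 they lay 28.2 and 28.3 kb away and at RARS1 13.7 and 14.1 kb. No peak of any list fell between 5 kb upstream and the end of these genes. A gene without a called peak is not shown to be free of MYC.

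E-boxes were not more frequent in the MYC peaks of the members than in those of other genes. Of the 23 genes with MYC in both lists 5 had a CACGTG anywhere in these peaks, 21.7% against 35.9% of the 8024 protein-coding genes. In single lists the counts were 6 of 30 genes against 28.1% in replicate 1 and 5 of 24 against 27.2% in replicate 2. Within 100 bp of the highest summits, NARS2 was the only one of the 23 genes with an E-box, 4.35% against 11.8%. MARS2, with MYC in replicate 1 alone, was outside this search and had an E-box 14 bp from its summit. Together with the variant CACGCG on either strand 15 genes had a match, 65.2% against 66.3%. The E-boxes of the other genes are shown because they mark the members whose MYC peak holds the full motif, on the plus strand of GRCh38 with the E-box in capitals, at chr2:222656429-222656458, chr9:92293866-92293895, chr6:31795700-31795729 and chr2:197705346-197705375.
FARSB: gggtggggcctcCACGTGggagatcttgcc
IARS1: gttttgcgcctcCACGTGgaaaacgaacca
VARS1: gcagccggcgccCACGTGttcccccctttg
MARS2: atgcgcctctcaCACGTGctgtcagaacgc

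Relative to the canonical start, the match of FARSB lay at −352 bp, that of IARS1 at −184 bp, that of VARS1 at 37 bp and that of MARS2, in the replicate 1 peak alone, at −8 bp. Another E-box of VARS1 lay under the peak of replicate 1 at an alternative start, 2912 bp downstream.

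The core of the amino acid response element was found in a larger share of the members' MYC peaks than of those of other genes. TGATGNAA or its reverse complement TTNCATCA was found in the MYC peaks of 8 of the 23 genes, 34.8% against 6.53% of protein-coding genes with MYC in both lists. These were 7 of 14 cytosolic genes, IARS1, MARS1, NARS1, TARS1, VARS1, WARS1 and YARS1, and 1 of 9 mitochondrial genes, FARS2. At MARS1, VARS1 and WARS1 the core lay in a peak of replicate 1 alone. The motif was chosen because ATF4 is known to act on these genes, and the shares carry no test. At 6 genes, GARS1 included with a peak in replicate 2 alone, the core lay within 50 bp of the canonical start, a share not computed over all genes. The cores of these 6 are shown on the plus strand of GRCh38 in capitals, at chr7:30594834-30594863, chr9:92293692-92293721, chr12:57488053-57488082, chr18:57621804-57621833, chr5:33440956-33440985 and chr1:32817337-32817366.
GARS1: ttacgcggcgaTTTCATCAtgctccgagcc
IARS1: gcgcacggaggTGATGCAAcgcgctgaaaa
MARS1: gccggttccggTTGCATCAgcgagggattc
NARS1: cgattccggcgTTGCATCAgagagcgtaga
TARS1: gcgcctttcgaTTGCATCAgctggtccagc
YARS1: gtccagccaggTTGCATCAgctgggctcgg

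The cores lay from −29 bp at GARS1 to 17 bp downstream at NARS1. All 6 genes are in the cytosolic class, although the enzyme of GARS1 works in both compartments. In the RefSeq promoters (GRCh38), 300 bases from 250 before to 50 after the start, 30 of the 35 members were matched. Of these, 7 had the core, 23.3% against 3.67% of all 27305 promoters. By class these were 6 of 16 cytosolic genes, the promoters of AARS1 and CARS1 among them, and 1 of 14 mitochondrial genes, YARS2. E-boxes were found in 4 of the 30 promoters, 13.3% against 7.43%, the variant in 6, against 11.4%, and the heat shock element in 0, against 0.487%. The median GC content was 62% for the members and 58.3% for all promoters.

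MYC peaks were also found at most other genes of tRNA charging. From a list of 20 such genes, 19 had a MYC peak in replicate 1, against 55.3% of all protein-coding genes, 16 in replicate 2, against 41.2%, and 16 in both lists, against 40.1%, with a median fold enrichment of 16.3 over the 16. The scaffolds of the multisynthetase complex, which holds several of the cytosolic enzymes together, all had MYC in both lists, with 34.2 and 35.4 at AIMP2, 20.7 and 24.0 at EEF1E1 and 10.1 and 9.79 at AIMP1. TRNT1, which adds the CCA end that synthetases charge, had 28.1 and 29.8. GATB, a subunit of the mitochondrial amidotransferase, was the gene with no MYC peak. HSF1 peaks were found in at least 1 list at 3 of the 20 genes, against 11.9% of all genes, with 8.44 at SEPSECS and 3.21 at ATF4, and in both lists at none.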

How the data were processed

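Reads were made with bcl2fastq 2.20.0 and, per the submitters' processing notes and the study's methods, aligned to GRCh38 with Bowtie2. The authors called peaks with MACS 2.2.9.1 for each library separately against 1 IgG library, which the file headers name as replicate 2 and the labels list without a number. The deposited lists give for each peak the summit, the pileup (a signal in fragments), the −log10 p-value and the fold enrichment over IgG, a ratio, all as the authors made them. Without read counts in them, no model of counts was used and no counting interval can be given.

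Peaks were assigned to start sites of GENCODE 44 by any base within 1 kb, in Python 3.11.15 with pandas 2.3.3, numpy 2.4.6 and scipy 1.17.1, and drawn with matplotlib 3.10.9. With several peaks at a gene, the highest fold enrichment was taken. Distances are from the Ensembl canonical start. On simulated data 327 of 327 planted assignments and 200 of 200 motifs were recovered. On 24 chromosomes 0 peaks passed a chromosome end. The members, gene lists and motifs were chosen with earlier results of these data known. Genes named with all values are those with an HSF1 peak, the 5 highest and 3 lowest MYC means, those with MYC in 1 list or none, and shared promoters. Others named were chosen after their values were seen. Alternatives changed the distance, thresholds, start sites, measure, motif window and replicates. A single gene of the tRNA charging list is not reported here by name.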

Additional observations from a re-analysis of the deposited data

How the results depend on the processing

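Of 67 values recomputed under alternatives 49 stayed near the reported value, 16 moved and 2 reversed. Near means within 1.5 times for a count of genes, within 1 SD of the values from the single MYC lists for a share or height, and the same sign for the difference between factors. For the class difference that SD was wide, since the single-list values were 22.7 and −3.3 points, so most values count as near. The sign of the difference between factors could hardly change either. The tally is therefore no measure of robustness for these results. Of these alternatives 55 were planned and 12, the canonical start and the settings of the difference between factors, were chosen after seeing the data. MYC in both lists held 18 genes at a limit of 1e-20, and 24 to 30 genes had MYC in a single list. HSF1 in both lists fell from 2 genes to 1 within 500 bp, with summits within 1 kb, with the outer end of the gene record and with the canonical start, where the intronic NARS2 peak is lost. At the stricter limit of 1e-10 for HSF1, genes with HSF1 in at least 1 list numbered 4 and those with overlapping peaks 3. Leaving out a replicate gave 4 to 5 genes for HSF1 in both lists (then 1 list), 4 to 5 for at least 1 list, and 3 to 7 for overlapping peaks, with the lowest value without HSF1 replicate 2. The class difference of 17.4 points was −3.3 without MYC replicate 2, 22.7 without MYC replicate 1, and 26.1 without KARS1 and GARS1, whose enzymes work in both compartments. As pileup, the median was 35.0 fragments and the class ratio 0.667, and with genes without a peak entered as 0 the median was 10.7 and the ratio reversed to 1.11. The class ratio was 0.715 to 0.722 with a MYC replicate left out. E-boxes within 100 bp of the highest summit were found at 1 of the 23 genes with MYC in both lists. With the variant added, 15 of them had a match anywhere in their peaks. The difference between factors stayed at 22.5 to 24.0 genes, each with an exact permutation p of 0.333. Paired by replicate number (a replicate block), the differences were 26 and 19 genes, with a mean of 22.5 and an exact sign-flip permutation p of 0.50, the smallest that 2 pairs allow, and the labels do not say that the numbers pair the libraries. Depth limits what was called: a missing peak is not evidence of no binding, and the lists hold no signal outside peaks.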

Other observations

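Peaks of the synthetase genes outside the 1 kb limit, from 5 kb upstream to the gene end, numbered 14 in 11 genes in MYC replicate 1, 4 in 4 genes in MYC replicate 2, 6 in 4 genes in HSF1 replicate 1 and 5 in 3 genes in HSF1 replicate 2. LARS2, the mitochondrial leucyl-tRNA synthetase, had its highest MYC peak not at the start but 163 kb downstream, past the end of the canonical transcript and in an exon of a longer transcript, with fold enrichments of 28.9 in MYC replicate 1, 16.3 in MYC replicate 2 and 7.5 in HSF1 replicate 1. At the LARS2 start the value was 10.1 in MYC replicate 1, with no peak in the other lists. Upstream of FARSA lay MYC peaks of 21.2 and 13.5 with summits at −4503 and −4723 bp, higher than at its own start. An HSF1 peak of 3.82 lay there in replicate 1. Whether these or the other peaks outside the 1 kb limit cover the start of another gene was not examined, so they cannot be assigned. RARS2 had a peak of 16.04 in intron 1, 11.3 kb downstream, in MYC replicate 1 alone, against 8.28 at its start.

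At MARS1, MYC replicate 1 and HSF1 replicate 2 both had a peak about 17 kb upstream of the canonical start with 461 fragments at the summit and fold enrichments of 2.25 and 2.16, the deepest pileup and the lowest fold enrichments among the peaks at the members. What this region holds was not tested.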
